A study of Oryzias latipes with 6 samples.

Results

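The myogenic regulatory factors and the MEF2 proteins are the transcription factors that switch on the skeletal muscle programme. Here they are the genes of a medaka expression table whose symbol, in lower case and without a copy suffix, starts with myod, myf5, myf6 or mef2a to mef2d, or is myog. The rule found 8 of the 20459 genes, 4 myogenic regulatory factors (MYOD, myf5, myf6 and myog) and 4 MEF2 genes (mef2aa, MEF2A (2 of 2), mef2cb and mef2d). Only myog and mef2cb were tested by the authors, who tested 3286 genes (16.1%).

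RNA came from axial tissue of Japanese medaka (Oryzias latipes, orange-red Hd-dR strain), that is, the vertebrae with the muscle, fat and dermis around them. The exposed embryos were held in 0.3 nM TCDD for 1 h from about 4 hours post fertilization. TCDD is a dioxin and a strong ligand of the aryl hydrocarbon receptor. The control embryos received 0.1% DMSO for 1 h from the same time. Tissue was dissected from both groups at 20 days post fertilization. Each group had 3 polyA libraries, made from RNA of 15 to 25 pooled fish. Since the labels name no separate clutches, the p-values may reflect technical spread alone.

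Values are taken to be FPKM, a unit that corrects fragment counts for gene length and for library size, because the table has the layout of a program that writes it. Levels, shares and ratios between genes below rest on that reading. The authors' deposited table gives 1 value per gene and group and no value per library. No SD can therefore be given and the depth is unknown. Genes with a q-value under 0.05 in the authors' own test are called changed. The label of the exposed group held up in that table, where cyp1a, the classical target of the aryl hydrocarbon receptor, had 3258 FPKM in TCDD fish and 27.7 FPKM in DMSO fish (q = 0.00105).

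The myogenic regulatory factors are basic helix-loop-helix proteins. They pair with E proteins and bind the E-box, a short DNA motif found near many muscle genes. MyoD and Myf5 commit precursor cells to muscle, myogenin drives myoblasts to differentiate and fuse, and Myf6, also called MRF4, is the member kept at high levels in mature mammalian fibres. MEF2 proteins belong to the MADS-box family. They bind A/T-rich sites beside E-boxes, act together with the myogenic factors, and in mouse muscle are held in check by class II histone deacetylases and released by calcium-dependent kinases.

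**Figure D1:**
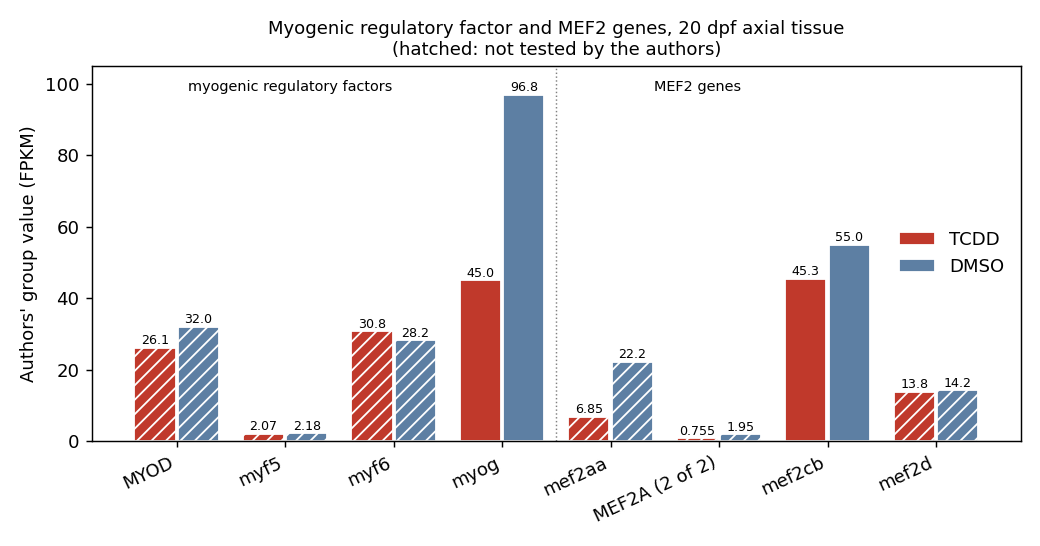
Authors' group values in FPKM (vertical axis, from 0) for the 8 genes, with TCDD in red left of DMSO in blue; error bars are missing for want of values per library, and hatched bars mark genes the authors did not test. The myog bars, 45.0 FPKM in TCDD and 96.8 FPKM in DMSO, show the largest drop in FPKM.

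Of the 2 members the authors tested, myogenin was called changed and mef2cb was not. In the authors' deposited table myog had 45.0 FPKM in TCDD fish and 96.8 FPKM in DMSO fish. It fell 2.15-fold, a log2 fold change of -1.11 (authors' test, q = 0.0349). Its gene lies on chromosome 5 at 29247112 to 29248662, in the coordinates of the table. Its genome build is not given in the sources used. mef2cb had 45.3 FPKM in TCDD fish and 55.0 FPKM in DMSO fish in the authors' deposited table (log2 -0.28, q = 0.592).

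The call therefore covers 1 of 2 tested members, and 0 rose. Of all genes tested in the authors' deposited table, 18.2% were called, 7.46% as lower and 10.7% as higher in TCDD. With 2 tested members the count cannot be told from that background. The myog call ended at a q threshold of 0.01, which 3.53% of tested genes passed as lower. A looser threshold of 0.1, which 10.7% passed as lower, could not end the call. When the authors' p-values were adjusted over the 1723 tested genes with a mean of at least 50 FPKM, 8.88% were lower and myog still passed (adjusted p = 0.0293). mef2cb did not pass there either (adjusted p = 0.613).

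The smallest change that the authors' test called was alike at the levels of both tested members. Among the 416 tested genes with a mean of 60 to 85 FPKM, the range around myog, 87 were called, beside 18.2% of all tested genes. The smallest absolute log2 fold change among the called genes was 0.803. Of the 416, 72 differed by at least the 1.11 log2 units of myog. Of these, 63 were called, and myog itself is in both counts. The genes were picked by their observed change, so the share called does not measure what the test could detect. Among the 740 tested genes with a mean of 40 to 60 FPKM, the range around mef2cb, 112 were called. The smallest absolute log2 fold change among the called genes there was 0.823. It follows that none of the 203 genes of that range that differed by 0.28 log2 units or less, mef2cb included, was called. The lack of a call does not show that mef2cb was unchanged.

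**Figure D2:**
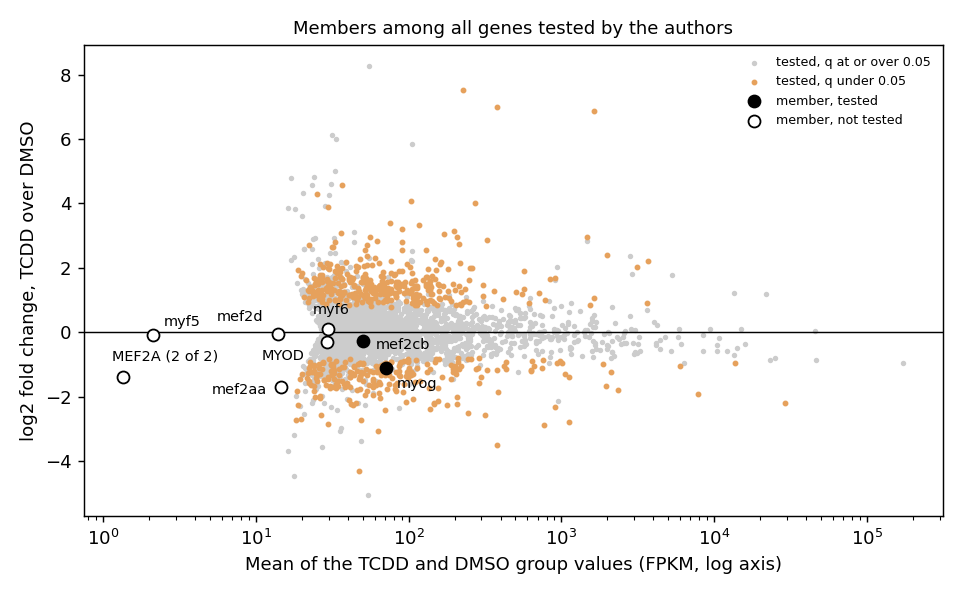
Change of each gene as log2 of TCDD over DMSO (vertical axis) against the mean of both group values in FPKM (horizontal axis, log scale) for tested genes above 0 in both groups, with called genes in orange, tested members in black and untested members as open circles. Among the members myog, at -1.11, lies among called genes, mef2cb, at -0.28, among genes that did not pass, and myf5, mef2d, mef2aa and MEF2A (2 of 2) lie left of most or all tested genes.

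The other myogenic regulatory factors differed little between the groups, and none was tested. MYOD, the determination factor MyoD, had 26.1 FPKM in TCDD fish and 32.0 FPKM in DMSO fish in the authors' deposited table, a log2 fold change of -0.29. myf6 had 30.8 FPKM in TCDD fish and 28.2 FPKM in DMSO fish (log2 0.12), the only member with a higher value in TCDD. myf5, the earliest factor of the family in embryonic muscle of mouse and zebrafish, was low in both groups of the authors' deposited table, at 2.07 FPKM in TCDD fish and 2.18 FPKM in DMSO fish. More than 30% of genes lay below myf5 in either group (33.0% in TCDD, 34.9% in DMSO), against 90.1% below myog in TCDD and 95.5% in DMSO.

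The summed FPKM of the 4 myogenic regulatory factors was 104 in TCDD fish and 159 in DMSO fish in the authors' deposited table. Without myog the sums were 59.0 FPKM in TCDD fish and 62.4 FPKM in DMSO fish, a log2 difference of -0.08 against -0.62 with it. Myogenin made up 43.3% of the family's FPKM in TCDD fish and 60.8% in DMSO fish. The share of myf6 was 29.6% in TCDD fish and 17.7% in DMSO fish, and that of MYOD 25.1% in TCDD fish and 20.1% in DMSO fish. The ratio of myog to MYOD was 1.72 in TCDD fish and 3.02 in DMSO fish, and that of myog to myf6 was 1.46 in TCDD fish and 3.43 in DMSO fish. These shares and ratios do not change when a common factor scales all values of a group, and they have no test. They could depend on how the libraries within a group were combined, which is not stated.

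**Figure D3:**
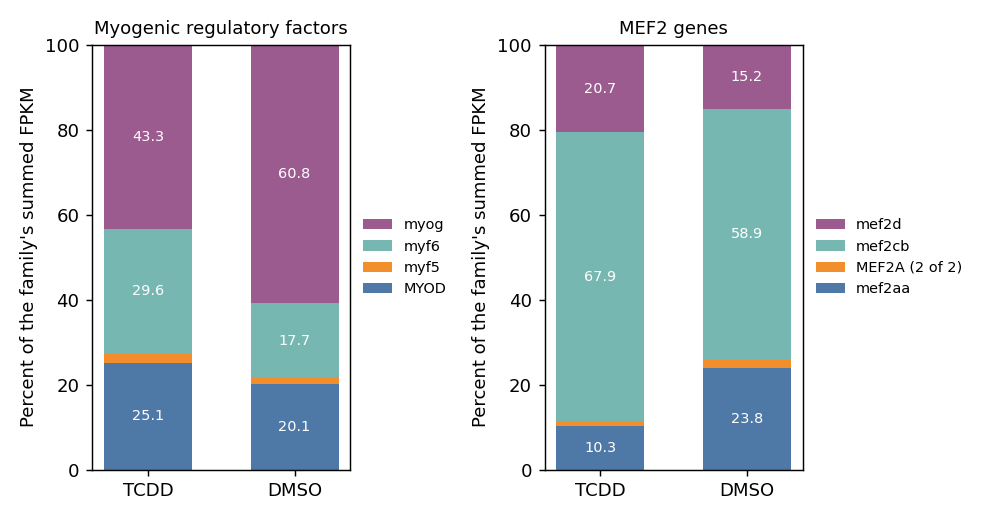
Each gene's percent of its family's summed FPKM (vertical axis, 0 to 100) in TCDD (left bar) and DMSO (right bar), for the myogenic regulatory factors and the MEF2 genes. Myogenin takes 43.3% in TCDD and 60.8% in DMSO, and mef2aa takes 10.3% of the MEF2 sum in TCDD and 23.8% in DMSO.

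Among the MEF2 genes the largest difference was in mef2aa, a fish copy of MEF2A, which was not tested. It had 6.85 FPKM in TCDD fish and 22.2 FPKM in DMSO fish in the authors' deposited table, 3.24-fold lower in TCDD (log2 -1.70). The second copy, MEF2A (2 of 2), had 0.755 FPKM in TCDD fish and 1.95 FPKM in DMSO fish (log2 -1.37). Only 23.7% of genes in TCDD and 33.4% in DMSO had lower values than this copy. mef2d, which is expressed early in zebrafish muscle, had 13.8 FPKM in TCDD fish and 14.2 FPKM in DMSO fish (log2 -0.04). Both MEF2A copies thus had the lower value in TCDD, whereas mef2d was nearly level, and none of the 3 differences has a test.

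The summed FPKM of the 4 MEF2 genes was 66.7 in TCDD fish and 93.3 in DMSO fish in the authors' deposited table (log2 -0.48). mef2cb made up the greater part, 67.9% in TCDD fish and 58.9% in DMSO fish. The share of mef2d was 20.7% in TCDD fish and 15.2% in DMSO fish, and that of mef2aa was 10.3% in TCDD fish and 23.8% in DMSO fish. mef2d stood at 2.01 times mef2aa in TCDD fish and at 0.637 times in DMSO fish. The order of their values was thus opposite in the groups, but neither gene has a test or a spread. Under the same symbol rule, the RefSeq annotation of assembly ASM223467v1 names mef2a and mef2c but no mef2d and no second mef2a. It also names a mef2b gene, on chromosome 4. No gene matched here has that symbol, so the sums and shares do not include it.

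In TCDD fish the order of levels was mef2cb, myog, myf6, MYOD, mef2d, mef2aa, myf5 and MEF2A (2 of 2). In DMSO fish it was myog, mef2cb, MYOD, myf6, mef2aa, mef2d, myf5 and MEF2A (2 of 2). Neighbours in either order cannot be separated, for want of a spread. In all, 7 of the 8 members had the lower value in TCDD, beside 48.6% of the 15005 genes above 0 in both groups of the authors' deposited table. For 3 of them (myog, mef2aa and MEF2A (2 of 2)) the DMSO value was over 2 times the TCDD value, beside 12.7% of the same genes at 2 times or more. The other 5 differed by at most 1.23-fold. Scaling both groups to equal totals adds 0.25 to every log2 fold change. It turns myf5 to 0.17 and mef2d to 0.21, and brings MYOD to -0.05 and mef2cb to -0.03. The direction of these small differences is therefore not fixed. The share of 48.6% belongs to the values without this scaling.

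Of the 6 untested members, myf5 and MEF2A (2 of 2) lay under the lowest mean of any tested gene, 13.7 FPKM. The other 4 lay at or above it. At the level of mef2aa and mef2d the authors tested few genes: 24 of 1649 genes with a mean between 13.7 and 20 FPKM. Of these 24, 9 were called, beside 18.2% of all tested genes. However, 17 of the 24 differed by at least the 1.70 log2 units of mef2aa. The tested genes therefore do not stand for all genes of that range, and their calls do not show what a test of mef2aa or mef2d would have given. At the level of MYOD and myf6, a mean of 25 to 35 FPKM, 66.6% of 1000 genes were tested. The untested genes of that range had a median locus of 4328 bp, against 8152 bp for the tested genes. The loci of MYOD (2816 bp) and myf6 (3585 bp) were shorter than both medians. In the range of mef2aa and mef2d the order was opposite, with a median of 7448 bp for untested and 6867 bp for tested genes. The untested mef2aa (60392 bp) and mef2d (60699 bp) have long loci, whereas myog, at 1550 bp, was tested. Why single genes were left untested was not tested.

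The members lie on 6 chromosomes, and no locus overlaps another gene of the table. myf5 (19582183 to 19583944) and myf6 (19590147 to 19593732) are neighbours on chromosome 23, 6203 bp apart, and they are next to each other in the RefSeq annotation of assembly ASM223467v1 too. This tandem arrangement is shared by vertebrates. Despite it, the myf6 value was 14.9 times that of myf5 in TCDD fish and 12.9 times in DMSO fish. MYOD (chromosome 6, 1088253 to 1091069) lies next to the fast troponin T gene tnnt3a, which had 18418 FPKM in TCDD fish and 32030 FPKM in DMSO fish in the authors' deposited table (q = 0.154).

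Among the 2 nearest genes on each side, the MEF2A copies share a neighbour family on 1 side. Genes further out were not compared. mef2aa (chromosome 6, 13788319 to 13848711) has mctp2a as its nearest named gene on the side of lower coordinates, and MEF2A (2 of 2) (chromosome 3, 32270338 to 32294501) has mctp2b there. On its other side mef2aa is followed by synm, which encodes the muscle intermediate filament protein synemin. synm rose, with 55.6 FPKM in TCDD fish and 19.9 FPKM in DMSO fish in the authors' deposited table (q = 0.0343), the opposite direction to the mef2aa values. MEF2A (2 of 2) is followed there by abcc12, at 1.13 FPKM in TCDD fish and listed at 0 in DMSO fish. mef2cb (chromosome 9, 14633396 to 14667751) and mef2d (chromosome 16, 23704227 to 23764926) each have a mir-9a gene as the nearest named neighbour on 1 side. The neighbours of myog were untested. Next to it, mdm4 had 12.3 FPKM in TCDD fish and 23.4 FPKM in DMSO fish, and ppfia4 had 2.85 FPKM in TCDD fish and 5.49 FPKM in DMSO fish, in the authors' deposited table.

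Some muscle markers fell beside myog and others did not pass. The 8 fast muscle markers match 10 genes. The authors' test called 3 of these lower and 0 higher in TCDD and left 7 uncalled, beside 7.46% of all tested genes called lower. Their summed level was 217179 FPKM in TCDD fish and 388166 FPKM in DMSO fish (log2 -0.84), most of it the parvalbumin gene pvalb1 (119442 FPKM in TCDD fish and 228225 FPKM in DMSO fish, q = 0.0915). The creatine kinase gene ckmb did not follow, with 46478 FPKM in TCDD fish and 44944 FPKM in DMSO fish (q = 0.927). Of 4 slow muscle markers, 2 were found, of which 1 fell and the other did not pass. They summed to 77.6 FPKM in TCDD fish and 201 FPKM in DMSO fish. In such bulk tissue fewer muscle cells and less RNA per cell cannot be told apart. The part of muscle content in the myog difference was not tested.

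Bone and cartilage markers also fell, and neural markers were not called. In the authors' deposited table all 3 tested bone markers fell, as did all 3 tested cartilage rows, sox9b and the separate rows of COL2A1A. The COL2A1A rows carry the same symbol and are not separate markers. Of all tested genes, 7.46% were called lower. The bone markers summed to 492 FPKM in TCDD fish and 2957 FPKM in DMSO fish, with bglap listed at 0 in TCDD, and the cartilage markers to 111 FPKM in TCDD fish and 287 FPKM in DMSO fish. None of 4 neural markers passed, and they summed to 352 FPKM in TCDD fish and 382 FPKM in DMSO fish. That sum joins opposite directions. The value was higher in TCDD for snap25a (92.7 FPKM in TCDD fish and 47.0 FPKM in DMSO fish, q = 0.0788) and elavl3 (45.8 and 27.0 FPKM). It was lower in TCDD for mbpa (171 FPKM in TCDD fish and 251 FPKM in DMSO fish) and gfap (43.0 and 56.6 FPKM). Of the 4 heart markers only nkx2.5 has a row, at 0.914 FPKM in TCDD fish and listed at 0 in DMSO fish. The part of these tissues in the myog difference was not tested.

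Genes that act with, before and after the myogenic factors were taken from 6 lists with 261 symbols. They match 181 genes, of which 75 were tested. The authors' test called 23 of these lower and 6 higher in TCDD, and 17 of the 23 were contractile or metabolic genes. Over all tested genes 7.46% were lower and 10.7% higher. The lists other than the contractile and metabolic one have 5 to 7 tested genes each, with 1 to 3 called, beside 18.2% called over all tested genes, and their calls are read as values of single genes. A gene can pass the authors' filter on low values through the group in which it is high, so the tested genes do not stand for all of a list. The median log2 fold change over all tested genes was 0.05.

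**Figure D4:**
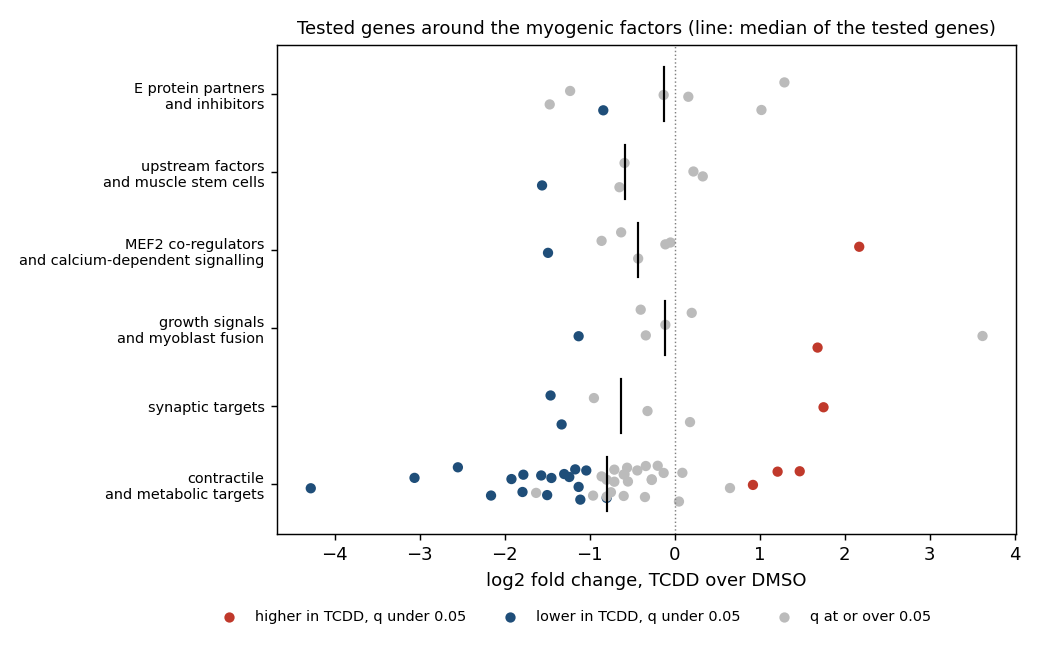
Change as log2 of TCDD over DMSO (horizontal axis) of the tested genes of the 6 lists (rows), 1 point per gene, red for higher and dark blue for lower in TCDD at q under 0.05, grey for genes that did not pass, and a vertical line at the median of the tested genes. In the contractile and metabolic row 17 of 43 genes are lower and 3 higher, with a median of -0.80.

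Of the partners and inhibitors of the myogenic factors, 1 of 7 tested genes was called. id1, whose Id protein captures E proteins and so blocks the myogenic factors, fell to 175 FPKM in TCDD fish, against 312 FPKM in DMSO fish, in the authors' deposited table (log2 -0.84, q = 0.0444). Another Id gene, id4, had 129 FPKM in TCDD fish and 141 FPKM in DMSO fish (q = 0.826). The genes twist3 and twist2 belong to the Twist family, whose mouse members hold back myogenic differentiation. They had 84.5 FPKM in TCDD fish and 75.7 FPKM in DMSO fish (q = 0.79), and 58.5 FPKM in TCDD fish and 28.8 FPKM in DMSO fish (q = 0.246). None of the list's tested genes rose in the authors' test. At an unadjusted p under 0.05, 3 were lower (id1, snai2 and id3) and 1 was higher (id2a). The Snail gene snai2 had 16.8 FPKM in TCDD fish and 46.4 FPKM in DMSO fish in the authors' deposited table (q = 0.0535). The median over the 7 was -0.13. The E protein genes themselves were untested.

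Of the upstream regulators and genes of muscle precursor cells, 1 of 5 tested was called. cdh15, which encodes the myoblast adhesion protein M-cadherin, fell to 20.0 FPKM in TCDD fish, against 58.8 FPKM in DMSO fish, in the authors' deposited table (log2 -1.56, q = 0.00105). six1b, a homeodomain factor that activates myogenic genes, had 92.8 FPKM in TCDD fish and 140 FPKM in DMSO fish (q = 0.175). The somite factor gene meox1 (30.0 FPKM in TCDD fish and 23.9 FPKM in DMSO fish, q = 0.651) and the syndecan gene sdc4 (121 FPKM in TCDD fish and 103 FPKM in DMSO fish, q = 0.664) did not pass either. None of the 5 rose, at q 0.05 or at an unadjusted p under 0.05 in the authors' test, and their median was -0.59.

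The 7 tested MEF2 co-regulators and calcium-signalling genes gave 1 fall and 1 rise in the authors' deposited table, with a median of -0.43. smarcd3b, which encodes the BAF60c chromatin subunit that helps MyoD open its targets in mouse cells, fell to 30.8 FPKM in TCDD fish, against 86.8 FPKM in DMSO fish (log2 -1.49, q = 0.00105). mapk12a, a muscle-rich p38 kinase gene, had 47.9 FPKM in TCDD fish and 10.7 FPKM in DMSO fish in the authors' deposited table, a rise of 2.17 log2 units (q = 0.0202). The serum response factor gene SRF (32.7 FPKM in TCDD fish and 44.2 FPKM in DMSO fish, q = 0.479), its coactivator gene mkl1b (36.9 FPKM in TCDD fish and 39.7 FPKM in DMSO fish, q = 0.843) and the calcium-dependent kinase gene camk2g1 (41.4 FPKM in TCDD fish and 42.7 FPKM in DMSO fish, q = 0.932) did not pass.

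Growth signals and fusion genes gave 1 fall and 1 rise among 7 tested in the authors' deposited table (median -0.11). cav3, the muscle caveolin of the fibre membrane, fell to 135 FPKM in TCDD fish, against 295 FPKM in DMSO fish (log2 -1.13, q = 0.00766). fsta, which encodes the myostatin antagonist follistatin, rose to 50.1 FPKM in TCDD fish, against 15.7 FPKM in DMSO fish (log2 1.68, q = 0.022). fstl1b, jam3b, which encodes a receptor needed for myoblast fusion in zebrafish, and the membrane-bending protein gene bin1 did not pass (q = 0.395, 0.556 and 0.831 in the authors' deposited table).

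Genes of the nerve-muscle synapse, several of which are activated by myogenin in mouse muscle, moved in both directions. The authors' test called 2 of 6 lower and 1 higher, and the median was -0.63. rapsn, which encodes the protein that clusters acetylcholine receptors, fell to 17.9 FPKM in TCDD fish, against 44.9 FPKM in DMSO fish (log2 -1.33, q = 0.0399). colq, which anchors acetylcholinesterase, fell to 14.8 FPKM in TCDD fish, against 40.7 FPKM in DMSO fish (log2 -1.46, q = 0.0296). musk, the receptor kinase that organises the synapse, rose to 30.5 FPKM in TCDD fish, against 9.06 FPKM in DMSO fish, in the authors' deposited table (log2 1.75, q = 0.00489). Its locus overlaps MOAP1, so its reads are uncertain. The receptor gene CHRNA1 (2 of 2) had 150 FPKM in TCDD fish and 133 FPKM in DMSO fish (q = 0.711), while ache (99.8 FPKM in TCDD fish and 125 FPKM in DMSO fish, q = 0.478) and agrn (26.2 FPKM in TCDD fish and 50.4 FPKM in DMSO fish, q = 0.175) did not pass.

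Contractile and metabolic genes of differentiated muscle, many of them known targets of the myogenic factors or MEF2, formed the list with the most tested genes. The authors' test covered 43, of which 17 fell (39.5%, against 7.46% of all tested genes) and 3 rose, and the median log2 fold change was -0.80. The falls with the smallest q included the muscle glycolysis genes pfkmb (log2 -3.06) and pgam2 (log2 -2.55), the Z-disc gene myoz1a, at 35.3 FPKM in TCDD fish and 158 FPKM in DMSO fish (log2 -2.16), and mylpfa (log2 -1.92), each with q = 0.00105. TNNI2 (3 of 5) and smyd1b had log2 fold changes of -1.79 and -1.78 at the same q in the authors' deposited table. TNNI2 has several copies that could share reads, and the smyd1b locus overlaps fabp1b.1. The copies myoz1b (log2 -0.55, q = 0.177) and mylpfb (log2 -0.35, q = 0.477) had higher levels than myoz1a and mylpfa and did not pass the authors' test. The most abundant genes that did not pass were ckmb (log2 0.05), tnnt3a (log2 -0.80) and TNNI2 (5 of 5) (log2 -0.86, q = 0.0542).

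The 3 genes of that list that rose, named after their values were seen, were xirp2a, a repeat protein of muscle attachment sites, at 232 FPKM in TCDD fish and 84.1 FPKM in DMSO fish (q = 0.00105), the kelch protein gene klhl31, at 998 FPKM in TCDD fish and 430 FPKM in DMSO fish (q = 0.0018), and the desmin gene desma (log2 0.92, q = 0.0273), all in the authors' deposited table. The lists were chosen with earlier results of these data known, and several of the contractile genes were already seen to fall, so their count is not independent evidence of a direction.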

How the data were processed

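The 6 libraries were made from polyA RNA, from 2 µg of total RNA with an integrity number of at least 9.9, and sequenced on the Ion Torrent PGM, per the labels' protocols. Bowtie2 2.2.6 and DESeq2 are named in the submitters' processing notes without a role. Per the file headers, the table follows the Cuffdiff layout for genes. Its group values, as deposited, are therefore taken to be FPKM. They sum to 1108805 in TCDD and 1315189 in DMSO. The sources do not state how the libraries of a group were combined. The authors' deposited p-values and q-values are used as they stand, as samples could not be tested without library values. Benjamini-Hochberg values recomputed from the p-values differ from the q-values by at most 5.11e-07. The authors' test statistic is a deposited score without a stated scale and was used for no result.

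Log2 fold changes of TCDD over DMSO were computed from the group values with no pseudocount (Python 3.11.15, pandas 2.3.3, numpy 2.4.6, scipy 1.17.1, matplotlib 3.10.9). Members and lists were chosen with earlier results of these data known. Every member is named, and from each list up to 6 called genes with the smallest q (ties by larger change) and the 3 uncalled genes with the highest mean. Other genes were named after their values were seen. Alternatives were q thresholds of 0.1 and 0.01, a minimum mean of 50 FPKM, 3 scalings and pseudocounts of 1 and 5. RefSeq names and gene order are from assembly ASM223467v1. Sequences were not used here.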

Additional observations from a re-analysis of the deposited data

How the results depend on the processing

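With a q threshold of 0.01 the count of members called lower in TCDD went to 0 (of the 2 tested, 1 has an unadjusted p under 0.05 in the authors' test). It stayed at 1 over genes with a mean of at least 50 FPKM. At a threshold of 0.1 it was also 1, but a call at 0.05 always passes there. The 6 lists have 75 tested genes. Genes called lower numbered 23, and 28, 18 and 19 at thresholds of 0.1 and 0.01 and over genes with a mean of at least 50 FPKM. Over all tested genes 7.46% were called lower, and 10.7%, 3.53% and 8.88% under these alternatives. Genes called higher numbered 6, and 6, 3 and 3 under the same alternatives. Over all tested genes 10.7% were called higher at q 0.05, and the shares under the alternatives are not given here. The stricter threshold and the smaller set of genes leave fewer to call. How many list genes have a mean of at least 50 FPKM is not given either. Equal totals turned the log2 fold change of myf5 to 0.17 and of mef2d to 0.21, and left 5 members with a lower value in TCDD, against 7 otherwise. Among these 5, MYOD stood at -0.05 and mef2cb at -0.03. The share of all genes with a lower value under equal totals is not given here. Of 40 member fold changes over 5 alternatives, 36 kept their sign and moved by less than 1.5-fold. MEF2A (2 of 2) went to -0.75 and -0.27 with pseudocounts of 1 and 5. For myog they ran between -1.15 and -0.86, and for mef2aa between -1.75 and -1.20. Leaving out a library could not be run without library values. No paired analysis was possible because library values are lacking. Depth is unknown, so how few reads lie behind the low members cannot be stated.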

Other observations

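Untested genes of the lists add values on the muscle precursor cell and on fibre signalling, with no test and at low levels. The precursor cell factor gene pax7a had 6.62 FPKM in TCDD fish and 12.8 FPKM in DMSO fish in the authors' deposited table, and pax3b had 7.78 FPKM in TCDD fish and 10.9 FPKM in DMSO fish, whereas pax3a had 4.02 FPKM in TCDD fish and 2.04 FPKM in DMSO fish. Of the class II histone deacetylase genes that restrain MEF2 in mouse muscle, hdac4 had 16.3 FPKM in TCDD fish and 8.92 FPKM in DMSO fish and hdac5 17.5 FPKM in TCDD fish and 18.8 FPKM in DMSO fish. The tested hdac9b had 22.3 FPKM in TCDD fish and 40.6 FPKM in DMSO fish in the authors' deposited table (q = 0.0736). Related genes differed in opposite directions. The calcineurin regulator gene rcan3 had 17.1 FPKM in TCDD fish and 3.39 FPKM in DMSO fish, whereas rcan1b had 7.98 FPKM in TCDD fish and 9.86 FPKM in DMSO fish. The mitochondrial coactivator gene ppargc1a had 0.616 FPKM in TCDD fish and 3.69 FPKM in DMSO fish, whereas ppargc1b had 6.47 FPKM in TCDD fish and 2.13 FPKM in DMSO fish. Among tested genes, fstl3, named after its values were seen, had 37.2 FPKM in TCDD fish and 3.02 FPKM in DMSO fish in the authors' deposited table, with q = 0.399. The fusion gene tmem8c, also called myomaker, was low, at 2.75 FPKM in TCDD fish and 1.61 FPKM in DMSO fish. Among untested genes the lists differed in direction, beside 48.6% of all genes above 0 in both groups with the lower value in TCDD. The sets are unlike, since that share covers tested and untested genes, and the list counts include untested genes at 0 in 1 group. The lower value was in TCDD for 27 and the higher for 12 of the MEF2 co-regulators and calcium-signalling genes, and for 5 and 6 of the partners and inhibitors. It was lower for 8 and higher for 3 of the upstream and precursor genes, and lower for 9 and higher for 8 of the growth and fusion genes. In the synaptic list 1 was lower and 5 were higher, and in the contractile and metabolic list 9 were lower and 3 higher. The remaining untested genes were listed at 0 in both groups.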
